A study of Mus musculus with 9 samples.

Results

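The epidermal growth factor (EGF) receptor family, its ligands and Met were described in mouse liver as a set of 10 genes. The set held the receptors Egfr, Erbb2, Erbb3 and Met, the ligands Egf, Tgfa, Areg, Hbegf and Btc, and the inhibitor Errfi1. The members were selected on their symbol and on the deposited expression values themselves. They were taken from tables of 23183 symbols, of which 16889 were above 0 in at least 1 liver, and a gene was kept if it was among these 16889. All 10 of the 10 symbols were found and kept. Areg lay just inside this limit, at 0.11 on the log2 scale in ND mouse 6 and at 0 in the other 8 livers, and no gene of the set lay outside it.

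Livers of 9 male C57BL/6J mice were sequenced, with 1 library per mouse and 3 mice per group, to compare a normal diet, a high-fat diet and a high-fat diet with a citrus leaf fraction. The ND mice (numbers 6, 7 and 9) ate a diet with 14% fat and the HFD mice (1, 2 and 3) a diet with 60% fat, each for 10 weeks. The PRF 50 mice (3, 9 and 10) ate the 60% fat diet for the same 10 weeks and were given 50 mg/kg of PRF by mouth each day in the last 5 weeks. PRF is a fraction of Jinkyool (Citrus sunki) leaf rich in polymethoxyflavones, given in carboxymethyl cellulose. All mice were labelled as postnatal day 100 and were fasted before sampling. Equal mouse numbers in different groups are different animals.

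Egfr, Erbb2 and Erbb3 are receptor tyrosine kinases that pair with each other when a ligand binds, and they signal through the RAS-ERK and PI3K-AKT pathways. Erbb3 has little kinase activity of its own and Erbb2 binds no known ligand, so both act in pairs. Met is the receptor of hepatocyte growth factor, and in liver both Egfr and Met are known for their part in hepatocyte growth and regeneration.

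The deposited values were read as log2(FPKM + 1), where FPKM is the number of sequenced fragments divided by transcript length and by library depth. FPKM corrects for length, so levels can be set side by side between genes. Read counts were not used here, and depth was known only relative to HFD mouse 1, which was set to 1. Relative depth was 1.06, 1.15 and 1.11 in ND mice 6, 7 and 9, 1.17 and 1.60 in HFD mice 2 and 3, and 0.981, 1.51 and 0.963 in PRF 50 mice 3, 9 and 10. The number of genes above 0 ran from 14372 to 14980 per liver. A value of 0 is given only as listed at 0, since albumin (Alb), a main product of hepatocytes, was listed at 0 in all 9 livers.

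By mean FPKM over the 9 livers, Errfi1 was the most abundant of the 10 genes at 251 FPKM, followed by Egfr at 67.4, Erbb3 at 15.5 and Met at 15.4. Tgfa at 4.36 and Btc at 1.26 were the most abundant ligands. Hbegf at 0.257, Erbb2 at 0.177 and Egf at 0.0743 FPKM followed, and Areg was listed above 0 in 1 liver. Errfi1 lay above Egfr in every liver. Erbb3 (8.30 to 24.4 FPKM) and Met (12.2 to 20.0 FPKM) did not differ beyond their spread, nor did Hbegf (0.130 to 0.385 FPKM) and Erbb2 (0.129 to 0.230 FPKM). Among genes above 0 in at least 1 liver, Egfr stood at percentile 93.9 and Erbb2 at percentile 25.5.

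**Figure D1:**
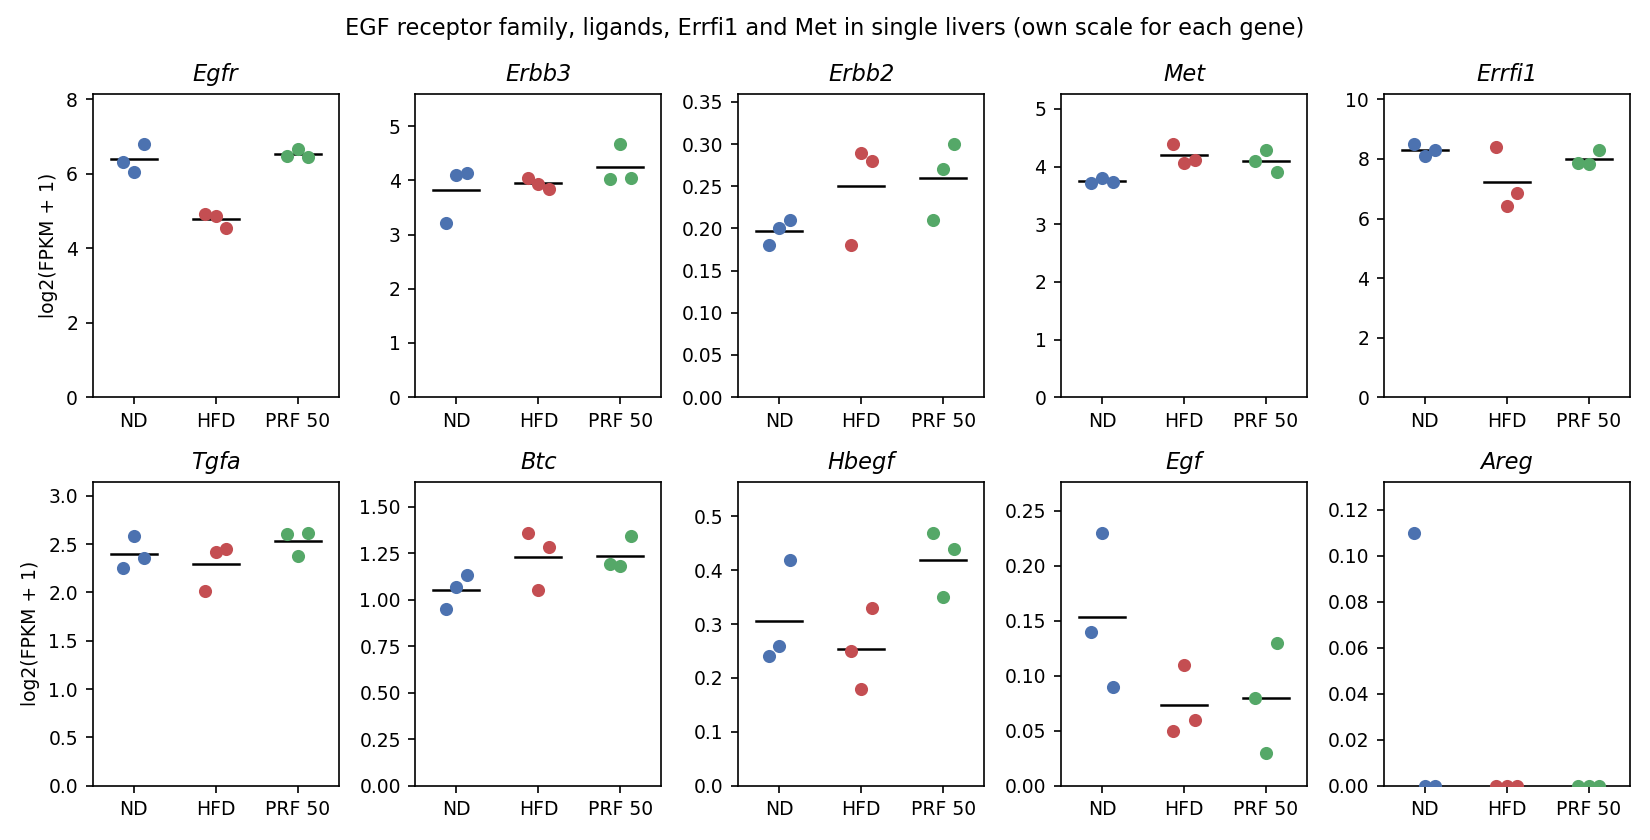
Level of each of the 10 genes as log2(FPKM + 1) in each of the 9 livers. Points are mice, grouped as ND, HFD and PRF 50, and short lines are group means (none is drawn for Areg). The 3 HFD mice lay between 4.54 and 4.92 for Egfr, below the other 6 mice, and Areg was at 0 in 8 livers.

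Differences were tested with limma over all genes whose mean FPKM in the 6 mice compared was 1 or more, and a gene was called at a Benjamini-Hochberg adjusted p under 0.05. Of the 10 genes, 6 (Egfr, Erbb3, Met, Errfi1, Tgfa and Btc) reached this level in all 3 comparisons, and Erbb2, Egf, Areg and Hbegf did not. In HFD vs. ND, 1 of the 6 was called, against 1.33% of all 9978 genes tested, and 2 of the 6 (Egfr and Met) had groups that did not overlap, against 20.7% of all genes tested. In PRF 50 vs. HFD, 1 of the 6 was called, against 3.59% of 10084 genes, and 1 (Egfr) did not overlap, against 26.2%. In PRF 50 vs. ND, 0 of the 6 were called by limma, against 0.458% of 10051 genes, 1 (Met) had an unadjusted p under 0.05 (12.5% of all genes tested), and 2 (Met and Btc) did not overlap, against 19.9%. The 3 HFD mice are part of both comparisons with HFD, so these comparisons are not independent. Under a second rule, an unadjusted p under 0.05 with a fold above 2, 2 of the 6 (Egfr and Errfi1) passed in HFD vs. ND, 1 (Egfr) in PRF 50 vs. HFD and 0 in PRF 50 vs. ND, against 1.34%, 2.10% and 1.76% of all genes tested. The set was drawn up with the Egfr difference between PRF 50 and HFD known, and that difference is given as a description of these mice.

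Egfr, the receptor of EGF, TGF-alpha and related ligands, was lower in the HFD mice than in both other groups. The gene lies at chr11:16752203-16918158 on the plus strand of GRCm38 in the GENCODE annotation, with 5 transcripts. The 250 bases before its start, at chr11:16751953-16752202 on the plus strand of GRCm38.p6, are shown from RefSeq because Egfr was the 1 called gene of the set. Promoter entries were found for 8 of the 10 genes, and none for Erbb3 and Hbegf. Capitals mark a GC box (GGGCGG, or CCGCCC on the other strand).
Egfr: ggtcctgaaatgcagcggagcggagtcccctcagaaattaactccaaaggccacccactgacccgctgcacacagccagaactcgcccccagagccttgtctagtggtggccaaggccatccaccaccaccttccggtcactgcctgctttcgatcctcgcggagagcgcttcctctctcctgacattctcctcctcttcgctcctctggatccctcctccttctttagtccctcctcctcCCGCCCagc
The GC content of this window was 60.8%, against a median of 52.4% over all promoters. The GC box began 9 bases before the start, and this motif was found on either strand in 32.7% of 32851 promoter windows of 250 bases. TTCNNNGAA, which reads the same on both strands and is held by 7.02% of the windows, and TATAAA, held on either strand by 12.4%, were not found in it. A match of letters is a description of the window and does not show that a factor binds there.

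In the ND mice 6, 7 and 9 Egfr was at 6.32, 6.05 and 6.79 on the log2(FPKM + 1) scale. It was at 4.92, 4.85 and 4.54 in HFD mice 1, 2 and 3, and at 6.46, 6.67 and 6.44 in PRF 50 mice 3, 9 and 10. Every HFD mouse was below every ND and PRF 50 mouse, and the ND and PRF 50 mice overlapped. The group means were 6.39 ± 0.38 in ND, 4.77 ± 0.20 in HFD and 6.52 ± 0.13 in PRF 50 (SD, n = 3 each), or 84.6, 26.4 and 91.3 FPKM. The gap between the highest HFD mouse and the lowest ND mouse was 1.13 on the log2 scale, and that to the lowest PRF 50 mouse was 1.52.

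Between HFD and ND the log2 difference in Egfr was -1.62 (SE 0.20, 95% confidence interval -2.07 to -1.16), a 3.07-fold lower level in HFD on the FPKM + 1 scale. The adjusted p from limma was 0.0119, and Egfr was at rank 31 by p of the 9978 genes, of which 0.631% were called lower. Without HFD mouse 3 the difference was no longer called (adjusted p = 0.0537), nor was it with no minimum level (adjusted p = 0.0505), and over 13 alternatives the adjusted p ran from 0.0049 to 0.0537. Between PRF 50 and HFD the log2 difference was 1.76 (SE 0.13, interval 1.46 to 2.05), a 3.38-fold higher level in PRF 50, at an adjusted p of 0.00243 and rank 6 of 10084 genes. Between PRF 50 and ND it was 0.14 (SE 0.19, interval -0.31 to 0.58, adjusted p = 0.792). In whole liver, fewer cells of a type and less RNA per cell cannot be told apart.

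**Figure D2:**
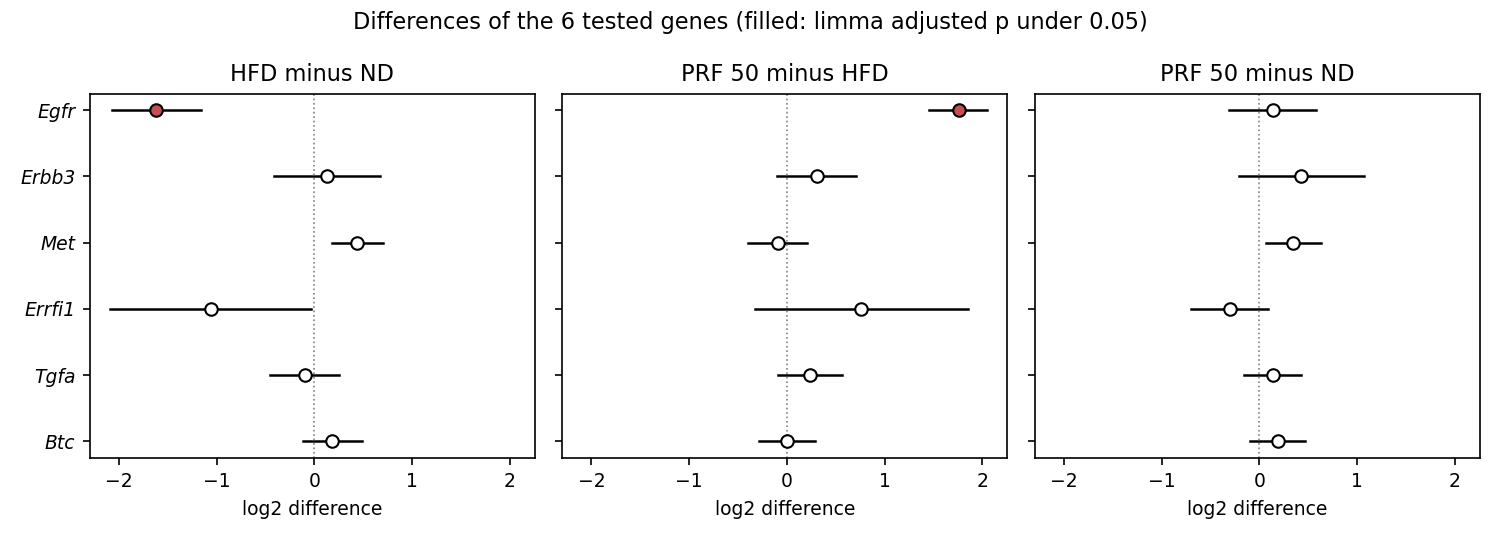
Log2 difference with its 95% confidence interval from limma for the 6 genes tested, in HFD vs. ND, PRF 50 vs. HFD and PRF 50 vs. ND. Egfr differed by -1.62, 1.76 and 0.14, and the interval of Met lay above 0 in HFD vs. ND (0.18 to 0.70).

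Erbb3 binds neuregulins and was not called in any comparison. Its log2 level was 3.22, 4.10 and 4.14 in ND mice 6, 7 and 9, 4.05, 3.94 and 3.85 in HFD mice 1, 2 and 3, and 4.03, 4.67 and 4.05 in PRF 50 mice 3, 9 and 10. The 3 groups overlapped, with ND mouse 6 the lowest and PRF 50 mouse 9 the highest. For Erbb3 the log2 difference was 0.13 in HFD vs. ND (interval -0.41 to 0.67, adjusted p = 0.831), 0.31 in PRF 50 vs. HFD (-0.10 to 0.71, adjusted p = 0.385) and 0.43 in PRF 50 vs. ND (-0.21 to 1.07, adjusted p = 0.543). Without ND mouse 6 the difference was -0.17 in HFD vs. ND and 0.13 in PRF 50 vs. ND, and without PRF 50 mouse 9 it was 0.10 in PRF 50 vs. HFD and 0.23 in PRF 50 vs. ND. Leaving out 1 mouse gave ranges of -0.17 to 0.29 in HFD vs. ND, 0.10 to 0.41 in PRF 50 vs. HFD and 0.13 to 0.59 in PRF 50 vs. ND.

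Erbb2, the partner receptor without a known ligand, was close to the lower end of what was measured. Its log2 level was 0.18, 0.20 and 0.21 in ND mice 6, 7 and 9, 0.18, 0.29 and 0.28 in HFD mice 1, 2 and 3, and 0.21, 0.27 and 0.30 in PRF 50 mice 3, 9 and 10. HFD overlapped with both other groups, and PRF 50 lay above ND by less than the rounding of these values in the nearest mice. With no minimum level, the difference between PRF 50 and ND was 0.065 (adjusted p = 0.563), and 17.0% of all genes so tested did not overlap in that comparison. The FPKM values of Erbb2 were whole multiples of a common step, with smallest whole numbers of 8, 10 and 10 in ND, 8, 15 and 20 in HFD and 9, 18 and 13 in PRF 50, within a tolerance of 0.1. Such steps were found for 93.3% of 1478 genes of low level, and the number of fragments may be a multiple of them. An exon of Erbb2 overlaps with Mien1 on the opposite strand, and whether the counting used strand was not given in the sources used here.

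Met, the receptor of hepatocyte growth factor, was at 3.72, 3.80 and 3.74 on the log2 scale in ND mice 6, 7 and 9. It was at 4.39, 4.07 and 4.12 in HFD mice 1, 2 and 3, and at 4.10, 4.29 and 3.91 in PRF 50 mice 3, 9 and 10. All 6 mice on the 60% fat diet lay above the 3 ND mice, and HFD and PRF 50 overlapped. Mean levels were 12.5, 17.4 and 16.3 FPKM in ND, HFD and PRF 50. Met had a log2 difference of 0.44 in HFD vs. ND (SE 0.11, interval 0.18 to 0.70), with an adjusted p of 0.128, and so did not pass. It was 0.35 in PRF 50 vs. ND (interval 0.07 to 0.63, adjusted p = 0.292) and -0.09 in PRF 50 vs. HFD (-0.40 to 0.21, adjusted p = 0.744).

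Egfr held a different share of the receptor transcripts in the HFD mice. Of the summed FPKM of Egfr, Erbb2 and Erbb3, Egfr was 90.3%, 80.0% and 86.8% in ND mice 6, 7 and 9. It was 65.1%, 65.5% and 62.1% in HFD mice 1, 2 and 3, and 84.9%, 80.4% and 84.4% in PRF 50 mice 3, 9 and 10. The HFD mice were below all others, and ND and PRF 50 overlapped. The ratio of Egfr to Met FPKM was 5.04 to 8.89 in ND, 1.35 to 1.76 in HFD and 5.40 to 6.09 in PRF 50, and that of Egfr to Erbb3 was 4.04 to 9.49, 1.66 to 1.93 and 4.14 to 5.66. Egfr was above Erbb3 and above Met in each of the 9 livers. These shares carry the Egfr difference and were not tested.

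**Figure D3:**
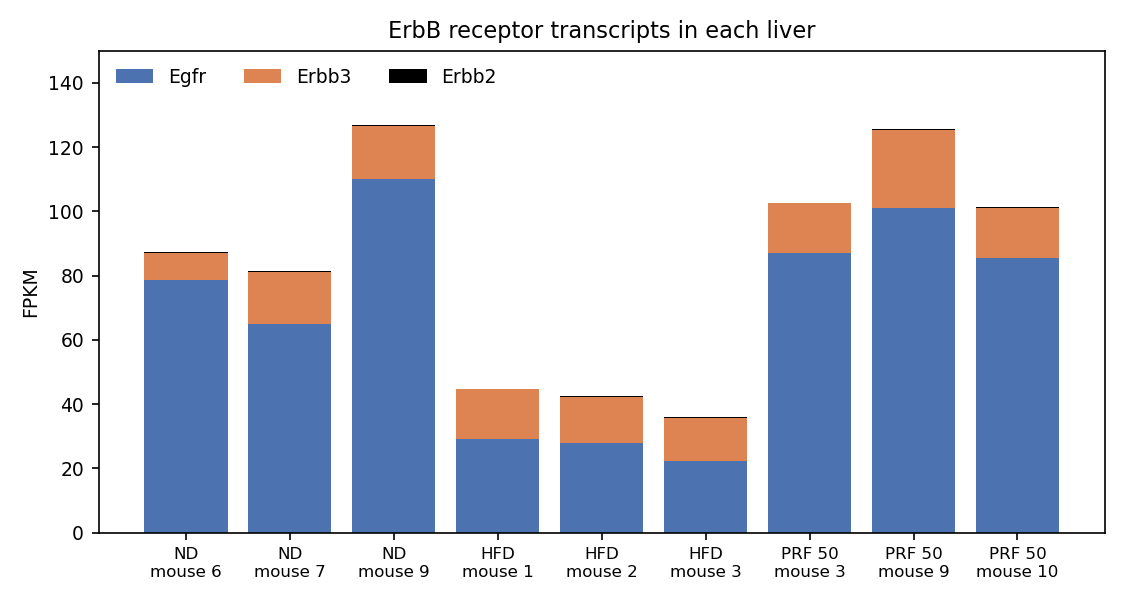
FPKM of Egfr, Erbb3 and Erbb2 as stacked bars for each of the 9 livers (ND, HFD and PRF 50 mice), on a linear axis from 0. The summed FPKM of Egfr, Erbb2 and Erbb3 was 35.9 to 44.9 in HFD and at least 81.4 in the other mice.

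Errfi1 (also known as Mig6) encodes a feedback inhibitor that binds the kinase domain of Egfr. Its log2 level was 8.50, 8.11 and 8.29 in ND mice 6, 7 and 9, 8.41, 6.43 and 6.87 in HFD mice 1, 2 and 3, and 7.87, 7.83 and 8.29 in PRF 50 mice 3, 9 and 10. HFD mice 2 and 3 were below the other 7 livers, while HFD mouse 1 lay within the ND range, so the groups overlapped. The HFD mean was 7.24 ± 1.04 (SD, n = 3), against 8.30 ± 0.19 in ND and 7.99 ± 0.26 in PRF 50. The log2 difference was -1.06 in HFD vs. ND (SE 0.45, interval -2.09 to -0.03, adjusted p = 0.318), 0.76 in PRF 50 vs. HFD (adjusted p = 0.422) and -0.30 in PRF 50 vs. ND (adjusted p = 0.5).

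The result for Errfi1 depended on single HFD mice. Without HFD mouse 1, the difference was -1.65 in HFD vs. ND (adjusted p = 0.0121) and 1.35 in PRF 50 vs. HFD (adjusted p = 0.0309). Without HFD mouse 2 it was -0.66 (adjusted p = 0.663) and 0.35 (adjusted p = 0.748). Over 13 alternatives the adjusted p ran from 0.0121 to 0.663 in HFD vs. ND and from 0.0309 to 0.748 in PRF 50 vs. HFD, and only that without HFD mouse 1 passed in either. The ratio of Errfi1 to Egfr FPKM was 11.6 in HFD mouse 1 and 3.06 and 5.21 in HFD mice 2 and 3, against 2.85 to 4.57 in ND and 2.24 to 3.64 in PRF 50.

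Tgfa, which encodes the ligand TGF-alpha, made up 63.0% to 77.3% of the summed FPKM of the 5 ligands in each liver. Its log2 level was 2.25, 2.58 and 2.36 in ND mice 6, 7 and 9, 2.02, 2.42 and 2.45 in HFD mice 1, 2 and 3, and 2.61, 2.38 and 2.62 in PRF 50 mice 3, 9 and 10. HFD mouse 1 was the lowest, and the 3 groups overlapped. For Tgfa the log2 difference was -0.10 in HFD vs. ND (interval -0.45 to 0.25, adjusted p = 0.79), 0.24 in PRF 50 vs. HFD (-0.09 to 0.57, adjusted p = 0.406) and 0.14 in PRF 50 vs. ND (-0.16 to 0.43, adjusted p = 0.688). Without HFD mouse 1 it was 0.04 in HFD vs. ND and 0.10 in PRF 50 vs. HFD, and leaving out 1 mouse gave ranges of -0.18 to 0.04, 0.10 to 0.32 and 0.06 (without ND mouse 6) to 0.23 (without ND mouse 7) in these comparisons. Exons of Tgfa overlap with Gm43917 on the opposite strand.

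Btc encodes betacellulin, a ligand of Egfr and Erbb4, and was at 0.95 to 1.13 on the log2 scale in ND, 1.05 to 1.36 in HFD and 1.18 to 1.34 in PRF 50. The PRF 50 mice lay above the ND mice by a gap of 0.05 and overlapped with the HFD mice. For Btc the log2 difference was 0.18 in HFD vs. ND (adjusted p = 0.563), 0.0047 in PRF 50 vs. HFD (adjusted p = 0.987) and 0.19 in PRF 50 vs. ND (adjusted p = 0.547). Leaving out 1 mouse gave 0.12 (without HFD mouse 1) to 0.27, -0.08 to 0.07 and 0.13 to 0.23 in these comparisons. With a pseudocount of 0.1 the Btc difference was 0.30 in HFD vs. ND and 0.32 in PRF 50 vs. ND. With quantile normalization it was 0.16 and 0.10 in these 2 comparisons.

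Hbegf, Egf and Areg, which also encode Egfr ligands, were below the minimum level and were not tested with the other genes. Hbegf was at 0.24, 0.26 and 0.42 on the log2 scale in ND mice 6, 7 and 9, 0.25, 0.18 and 0.33 in HFD mice 1, 2 and 3, and 0.47, 0.35 and 0.44 in PRF 50 mice 3, 9 and 10. The PRF 50 mice were above the HFD mice, and ND overlapped with both. With no minimum level, 21.0% of all genes so tested did not overlap between PRF 50 and HFD. In that fit the difference for Hbegf between PRF 50 and HFD was 0.17 (adjusted p = 0.229). Its smallest whole-number steps were 5, 6 and 10 in ND, 5, 4 and 11 in HFD and 10, 11 and 9 in PRF 50, in the same order of mice.

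Egf was at 0.14, 0.23 and 0.09 on the log2 scale in ND mice 6, 7 and 9, 0.05, 0.11 and 0.06 in HFD mice 1, 2 and 3, and 0.08, 0.03 and 0.13 in PRF 50 mice 3, 9 and 10. All groups overlapped at these levels, which correspond to smallest whole-number steps of 6, 11 and 4, then 2, 5 and 4, then 3, 2 and 5 in the same order. With no minimum level, the log2 difference in Egf was -0.08 in HFD vs. ND (adjusted p = 0.534), 0.0062 in PRF 50 vs. HFD (adjusted p = 0.949) and -0.07 in PRF 50 vs. ND (adjusted p = 0.6). Exons of Egf overlap with 6330410L21Rik and Gm42697 on the opposite strand. Areg was listed at 0 in all mice but ND mouse 6, so no fold is given for it. The summed FPKM of the 5 ligands was 5.06 to 6.45 in ND, 4.84 to 6.19 in HFD and 5.76 to 7.13 in PRF 50, and the groups overlapped.

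The other genes of these pathways were taken as 6 lists with 96 genes, of which 95 were in the tables (Nrdc was not found). In HFD vs. ND, 64 genes were tested, and 1 was called higher and 1 lower, against 1.33% of all genes tested called in either direction. The median log2 difference was 0.01, against -0.01 over all genes tested. In PRF 50 vs. HFD, 64 were tested, and 0 were called higher and 1 lower (3.59% of all genes), with a median of 0.02 against -0.02. In PRF 50 vs. ND, 63 were tested and 0 were called by limma (0.458% of all genes), while 8 had an unadjusted p under 0.05 (12.5% of all genes), and the median was 0.05 against -0.03.

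The gene called higher in HFD vs. ND was Spry4, an inhibitor of receptor signaling to ERK from the list of negative regulators. It was at 1.80, 1.37 and 1.43 on the log2 scale in ND mice 6, 7 and 9, 2.40, 2.24 and 2.31 in HFD mice 1, 2 and 3, and 2.34, 1.83 and 2.07 in PRF 50 mice 3, 9 and 10. All HFD and PRF 50 mice lay above the ND mice, and PRF 50 overlapped with HFD. The log2 difference was 0.78 in HFD vs. ND (SE 0.138, adjusted p = 0.0399), -0.24 in PRF 50 vs. HFD (adjusted p = 0.404) and 0.55 in PRF 50 vs. ND (adjusted p = 0.255). The call was lost without any 1 of HFD mice 1, 2 and 3 (adjusted p = 0.0928, 0.122 and 0.16) or of ND mice 7 and 9 (0.149 and 0.0928). It was also lost with no minimum level (0.119) and with quantile normalization (0.0568), and over 12 alternatives the adjusted p ran from 0.0285 to 0.16. Usp8, a deubiquitinase of receptors in endosomes, was the most abundant of the negative regulators at 13.4 FPKM.

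The gene called lower in HFD vs. ND was Myc, a transcription factor from the list of ERK response genes. Its log2 level was 2.18, 1.70 and 1.58 in ND mice 6, 7 and 9, 0.87, 0.33 and 0.48 in HFD mice 1, 2 and 3, and 1.02, 0.96 and 0.95 in PRF 50 mice 3, 9 and 10. The ND mice were above all others, and every HFD mouse was below every PRF 50 mouse. The log2 difference was -1.26 in HFD vs. ND (SE 0.204, adjusted p = 0.0318) and -0.84 in PRF 50 vs. ND (adjusted p = 0.0914), and Myc was below the minimum level in PRF 50 vs. HFD. With a pseudocount of 0.1 the difference in HFD vs. ND was -2.25. Myc was below 1 FPKM in every HFD mouse and reached the minimum level of that comparison through its ND values, so its call describes a gene admitted by the group where it was high. The call was lost without HFD mouse 2 or 3 (adjusted p = 0.11 and 0.126) or ND mouse 6 or 7 (0.0718 and 0.107) and with no minimum level (0.0979), within a range of 0.0142 to 0.126 over 12 alternatives.

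Of the 20 ERK response genes, 9 were tested in each comparison. They were not the same 9, since in PRF 50 vs. HFD Myc was below the minimum level and another gene of the list was tested in its place. The counts and medians of the comparisons with ND include Myc, which was admitted there by its ND values, and are given as a description. The median log2 difference in HFD vs. ND was -0.41 and 7 of the 9 values were below 0, against 51.7% of all genes tested, with Myc the 1 called and 3 at an unadjusted p under 0.05 (15.1% of all genes). In PRF 50 vs. HFD the median was -0.09 and 5 of the 9 were below 0 (53.0% of all genes), and in PRF 50 vs. ND it was -0.35 and 7 of the 9 were below 0 (56.6% of all genes). By limma 0 of the 9 were called in these 2 comparisons, with 2 and 4 at an unadjusted p under 0.05, against 20.2% and 12.5% of all genes. The most abundant was Phlda1, at 44.0 FPKM. It was at 6.68, 6.44 and 5.17 on the log2 scale in ND mice 6, 7 and 9, 5.77, 4.50 and 4.36 in HFD mice 1, 2 and 3, and 4.93, 4.68 and 4.64 in PRF 50 mice 3, 9 and 10, so that ND and HFD overlapped. Its log2 difference was -1.22 in HFD vs. ND (adjusted p = 0.288) and -1.35 in PRF 50 vs. ND (adjusted p = 0.172).

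Nrg4, a neuregulin and the 1 tested gene of 7 other ErbB receptors and ligands, was called lower in PRF 50 vs. HFD. It was at 2.76, 1.87 and 2.30 on the log2 scale in ND mice 6, 7 and 9, 2.72, 2.72 and 2.60 in HFD mice 1, 2 and 3, and 2.10, 2.09 and 2.22 in PRF 50 mice 3, 9 and 10. The HFD mice were above the PRF 50 mice, and ND overlapped with both. The log2 difference was -0.54 in PRF 50 vs. HFD (SE 0.0888, adjusted p = 0.0289) and 0.37 in HFD vs. ND (adjusted p = 0.456). The call was lost without any 1 of HFD mice 1, 2 and 3 (adjusted p = 0.0636, 0.1 and 0.0796) or of PRF 50 mice 3 and 9 (0.0833 and 0.0665), with no minimum level (0.0647) and with all 9 mice in 1 fit (0.148), the highest of 12 alternatives, whose lowest was 0.0287.

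In the remaining lists 0 genes were called by limma in any comparison. Over all genes tested, 15.1%, 20.2% and 12.5% had an unadjusted p under 0.05 in HFD vs. ND, PRF 50 vs. HFD and PRF 50 vs. ND. Of the ligand release genes, 6 of 9 were tested, with Adam9, a membrane metalloprotease, the most abundant at 19.0 FPKM, and 1, 1 and 0 of the 6 were under that p in these comparisons. Of the genes of hepatocyte growth factor and its processing, 5 of 10 were tested, with 1, 1 and 0 of the 5 under it. The most abundant of these was Hpn, a serine protease that activates the growth factor, at 185 FPKM. Of the adaptors and effectors, 25 of 27 were tested, with 2, 3 and 1 of the 25 under it, and Map2k2, a kinase of the ERK pathway, was the most abundant at 36.2 FPKM. Median log2 differences in HFD vs. ND were -0.04, -0.08 and 0.02 for these 3 lists, those in PRF 50 vs. HFD were 0.10, 0.18 and 0.00, and those in PRF 50 vs. ND were 0.20, -0.01 and 0.06. The negative regulators had medians of 0.07, 0.06 and 0.08.

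**Figure D4:**
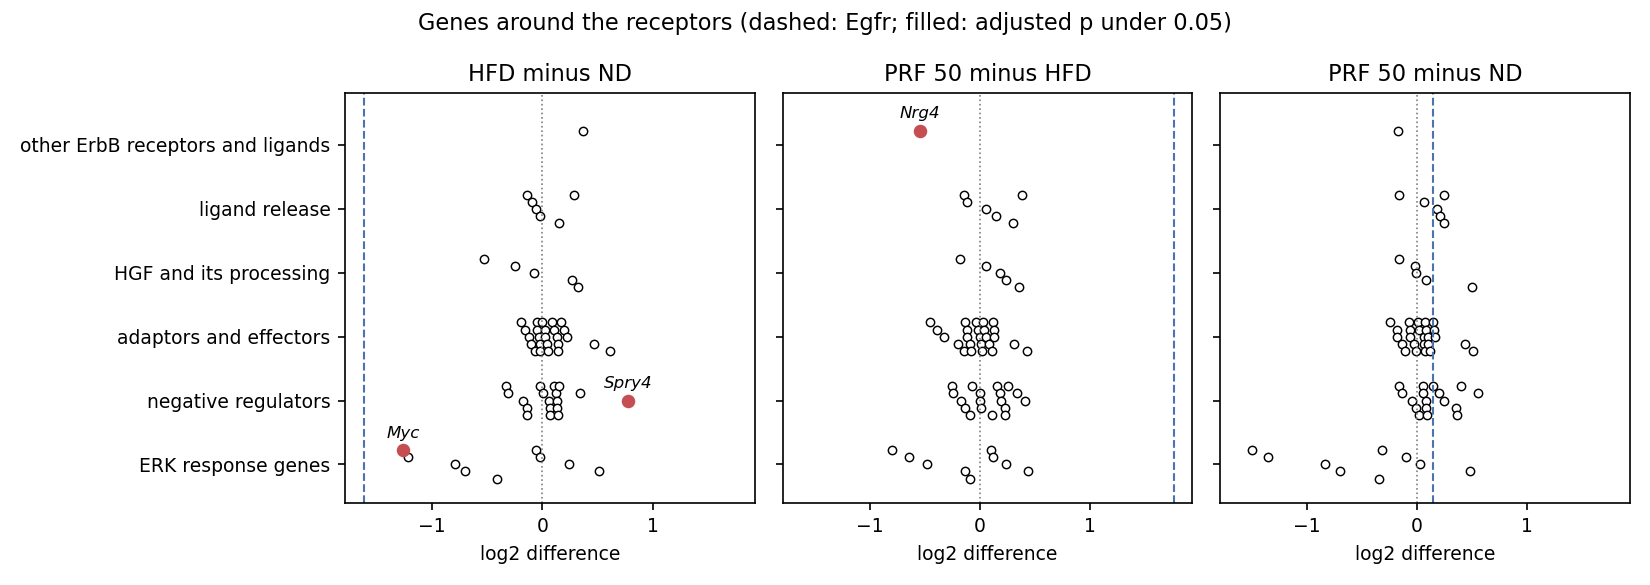
Log2 difference of each tested gene of the 6 pathway lists in the 3 comparisons. Points are genes, the dashed line is the difference of Egfr, and filled points with names are genes called at an adjusted p under 0.05, which were Spry4 (0.78) and Myc (-1.26) in HFD vs. ND and Nrg4 (-0.54) in PRF 50 vs. HFD.

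Marker genes of liver cell types were set beside the Egfr differences. The summed FPKM of 8 hepatocyte markers was 16600 to 24700 in ND, 16400 to 22900 in HFD and 18800 to 20000 in PRF 50, with Apoa1 the most abundant at 9560 FPKM and Alb listed at 0. These sums overlapped between the groups and rest largely on Apoa1 and Ttr, the latter at a mean of 5390 FPKM. By limma 0 of the 7 hepatocyte markers tested were called in any comparison, with 2, 1 and 0 at an unadjusted p under 0.05 in HFD vs. ND, PRF 50 vs. HFD and PRF 50 vs. ND, against 15.1%, 20.2% and 12.5% of all genes tested. Of the 7 differences in HFD vs. ND, 5 were below 0, as was that of Egfr, with a median of -0.32 against -0.01 over all genes tested. Hnf4a, a transcription factor of hepatocytes, was lower in every HFD mouse than in any ND mouse, with a log2 difference of -0.32 (adjusted p = 0.31), and so was Cps1, an enzyme of the urea cycle, with -0.61 (adjusted p = 0.191). In either direction 20.7% of all genes tested did not overlap between these groups, and the single markers here were named after their values were seen. Hnf4a was also lower without overlap in PRF 50 vs. ND, at -0.24 (adjusted p = 0.439), where 11.8% of all genes tested were lower without overlap. In PRF 50 vs. HFD the groups overlapped for Hnf4a (0.09) and for Cps1 (0.38). Ttr (0.20) and Tdo2 (0.12) had log2 differences above 0 in HFD vs. ND. Ttr, which encodes transthyretin, was lower without overlap in PRF 50 vs. HFD, opposite to Egfr, with a log2 difference of -0.62 (adjusted p = 0.0865), and 15.3% of all genes tested were lower without overlap in that comparison. The median of the 7 was 0.19 in PRF 50 vs. HFD and -0.20 in PRF 50 vs. ND. The part of hepatocytes in the Egfr differences was not tested.

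Markers of Kupffer cells, the resident macrophages of the liver, differed between PRF 50 and HFD together with Egfr. Their summed FPKM was 92.4, 173 and 217 in ND mice 6, 7 and 9, 111, 177 and 177 in HFD mice 1, 2 and 3, and 610, 370 and 391 in PRF 50 mice 3, 9 and 10. The PRF 50 mice were above all others, and ND and HFD overlapped. All 10 markers were tested, and in PRF 50 vs. HFD all 10 were higher without overlap (10.9% of all genes tested) and 9 were called higher (1.43% of all), with a median log2 difference of 1.45. All of them but Adgre1 and Timd4 were already in the study's own list of genes higher in PRF 50 than in HFD. The counts in PRF 50 vs. HFD are therefore given as a description. In HFD vs. ND 0 of the 10 markers were called, 0 had an unadjusted p under 0.05, and the median was 0.00. In PRF 50 vs. ND 0 were called by limma, all 10 had an unadjusted p under 0.05 and were higher without overlap (8.19% of all genes tested), and the median was 1.40. Cd5l was the most abundant of them at 54.1 FPKM, and none of the 10 was at 0 in every mouse.

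The count of 9 Kupffer cell markers in PRF 50 vs. HFD was 1 without HFD mouse 2, 0 without HFD mouse 3, 1 without PRF 50 mouse 3, 5 without PRF 50 mouse 10 and 2 with no minimum level. With all 9 mice in 1 fit, 3 were called in PRF 50 vs. ND. Without ND mouse 9, 2 were called in PRF 50 vs. ND, and without PRF 50 mouse 9, 1 was. The part of Kupffer cells in the Egfr difference between PRF 50 and HFD was not tested.

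The summed FPKM of 9 markers of other leukocytes was 7.79 to 13.4 in ND, 6.24 to 8.10 in HFD, and 61.3, 20.9 and 7.48 in PRF 50 mice 3, 9 and 10, with S100a8 the most abundant at 6.12 FPKM and PRF 50 mouse 3 the highest. Stellate cell markers summed to 63.1 to 111 FPKM in ND, 89.3 to 114 in HFD and 83.8 to 142 in PRF 50, and Dcn was the most abundant at 77.3 FPKM. Those of sinusoidal endothelial cells summed to 66.2 to 106, 50.4 to 88.4 and 69.2 to 100 FPKM, and Dpp4 was the most abundant at 30.8. Both sums overlapped between all groups. The collagen genes Col1a1 and Col3a1 of the stellate cell list, named after their values were seen, were higher without overlap in HFD vs. ND. Their log2 differences were 0.77 (limma adjusted p = 0.0798) and 0.87 (adjusted p = 0.101), where 20.7% of all genes tested did not overlap, counted in either direction. Both collagen genes were lower without overlap in PRF 50 vs. HFD (15.3% of all genes), at -0.46 (limma adjusted p = 0.162) and -0.43 (adjusted p = 0.18). The HFD mice thus lay apart in both genes, as in Egfr, but on the high side. The other 5 of the 7 tested stellate cell markers were higher in PRF 50 vs. HFD, and none of these 5 was without overlap in either comparison. Col1a1 was below 1 FPKM in every ND and PRF 50 mouse and reached the minimum level through its HFD values. Its differences therefore describe a gene admitted by the group where it was high. Median log2 differences in HFD vs. ND, PRF 50 vs. HFD and PRF 50 vs. ND were 0.29, 0.14 and 0.44 for the tested stellate cell markers and -0.34, 0.20 and -0.19 for those of sinusoidal endothelial cells. In HFD vs. ND 5 of the 7 sinusoidal endothelial cell markers were below 0, as were 5 of the 7 hepatocyte markers (51.7% of all genes tested). For the 3 tested markers of other leukocytes the medians were 0.09, 1.49 and 0.97, and in PRF 50 vs. HFD all 3 were higher, 2 of them without overlap (10.9% of all genes tested). The part of these cell types in the Egfr differences was not tested. Cholangiocyte markers summed to 26.0 to 28.5 FPKM in ND, 25.6 to 36.9 in HFD and 31.8 to 41.5 in PRF 50, with Spp1 the most abundant at 28.8, and the PRF 50 mice were above the ND mice. This sum rests almost only on Spp1, with a log2 difference of 0.45 in PRF 50 vs. ND (limma adjusted p = 0.191). Sox9, the other marker tested in that comparison, went the other way at -0.13 (limma adjusted p = 0.793). By limma 0 markers of these 4 cell types were called in any comparison. In HFD vs. ND, PRF 50 vs. HFD and PRF 50 vs. ND, an unadjusted p under 0.05 was found for 0, 2 and 1 of 3 tested markers of other leukocytes, against 15.1%, 20.2% and 12.5% of all genes tested. It was found for 2 of 7, 2 of 7 and 0 of 6 stellate cell markers, 1, 0 and 0 of 7 sinusoidal endothelial cell markers, and 0 of 1, 0 of 1 and 1 of 2 cholangiocyte markers.

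**Figure D5:**
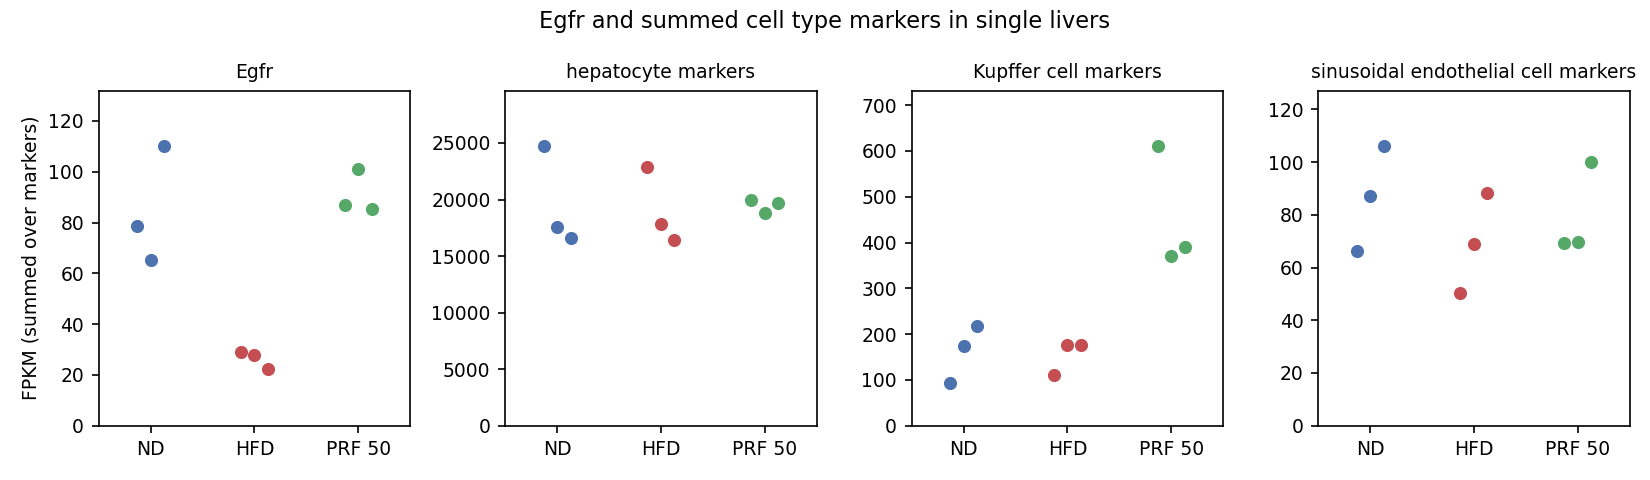
FPKM of Egfr and summed FPKM of hepatocyte, Kupffer cell and sinusoidal endothelial cell markers, with a point for each ND, HFD and PRF 50 mouse. Kupffer cell markers summed to 370 to 610 FPKM in the 3 PRF 50 mice and to at most 217 FPKM in the other 6 mice.

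Over the 9 livers and 10048 genes, the genes most like Egfr by Pearson r of the log2 values were Got1 (0.97), Pola2 (0.965), Zfp275 (0.953), Tgm1 (0.946) and Cyp2c70 (0.945). Got1, the cytosolic aspartate aminotransferase, was at 6.32 ± 0.13 in ND, 5.46 ± 0.14 in HFD and 6.24 ± 0.17 in PRF 50 (SD, n = 3 each). Tgm1, a transglutaminase, was at 2.30 ± 0.18, 1.45 ± 0.08 and 2.77 ± 0.17. Like Egfr, both were lower in every HFD mouse than in any other mouse. The lowest r were those of Fam107b (-0.978), Mup12 (-0.969), Maob (-0.968), Cyp2b9 (-0.963) and Shpk (-0.956). Maob, a monoamine oxidase, was at 6.46 ± 0.11, 6.94 ± 0.05 and 6.29 ± 0.08 in ND, HFD and PRF 50, and Cyp2b9, a cytochrome P450, at 1.52 ± 1.15, 7.04 ± 0.43 and 1.04 ± 0.59. Mup12 was listed at 0 in the 6 ND and PRF 50 mice and at 5.35, 6.04 and 6.23 in HFD mice 1, 2 and 3, and it belongs to a family of near-identical genes, so its value is uncertain.

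These r are a description of 9 points that fall into 3 groups, with the HFD mice apart in Egfr. By Spearman rho, 0 of the 5 genes with the highest r stayed among the 5 highest, and without 1 mouse in turn 1 to 4 of the 5 did. The genes most like Erbb3 were Garem (0.958), Zfp236 (0.951) and Gm10509 (0.946), and those most like Met were Mapk14 (0.956), Ctsf (0.955) and Sall1 (0.935). Errfi1 was most like 1810043H04Rik (0.964), Slc38a2 (0.962) and Dhx16 (0.96). Slc38a2, an amino acid transporter, was at 4.74, 3.82 and 3.80 in HFD mice 1, 2 and 3, with mouse 1 the highest as for Errfi1. Tgfa was most like Mcm7 (0.957), Strn4 (0.956) and Rgs10 (0.948), and Btc was most like Spidr (0.945), Zfp638 (0.901) and Txndc16 (0.895).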

How the data were processed

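Liver RNA of 9 mice was poly(A)-selected, made into stranded libraries and sequenced from both ends. The authors used FASTX_Trimmer and BBMap for read trimming, TopHat for mapping (build mm10 in the submitters' processing notes) and Cufflinks for FPKM, and state a geometric normalization with EdgeR. The deposited values are on a log2 scale, and a pseudocount of 1 was inferred from a lowest value of 0. Fold changes are on the FPKM + 1 scale, which understates changes of low genes. Read counts were not used here, so absolute depth is unknown.

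Groups of 3 mice were compared 2 at a time with limma 3.58.1 in R 4.3.3 (lmFit, eBayes with a trend) on genes whose mean FPKM over the 6 mice was 1 or more. P-values were adjusted by Benjamini-Hochberg over all genes tested. The steps were tested on simulated data. Likeness, receptor shares, relative depth and whole-number steps were computed in Python 3.11.15. Positions were taken from GENCODE M21 on GRCm38.

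The text names the 10 genes, the called genes and the most abundant gene of each pathway list, the most abundant marker and those at 0, and the genes with the highest r (and, for Egfr, the lowest). The markers Hnf4a, Cps1, Ttr, Tdo2, Col1a1, Col3a1, Sox9, Adgre1 and Timd4 were named outside this rule, after their values were seen. Members and lists were chosen with earlier results of these data known. The alternatives were a pseudocount of 0.1, no minimum or 10 FPKM, median-of-ratios or quantile scaling, eBayes without a trend, a single fit of all 9 mice, each mouse left out, and Spearman rho.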

Additional observations from a re-analysis of the deposited data

How the results depend on the processing

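No paired analysis was possible because the groups held different mice, and equal mouse numbers in different groups are different animals. The log2 difference of Egfr between PRF 50 and HFD was called in 13 of 13 alternatives (adjusted p from 0.00128 to 0.019), at 1.64 to 1.83 when 1 mouse was left out, and that between HFD and ND in 11 of 13, at -1.79 to -1.41. Median-of-ratios scaling and eBayes without a trend moved no count of genes by over 1.5 times.

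The number of genes called in HFD vs. ND, PRF 50 vs. HFD and PRF 50 vs. ND was 133, 362 and 46. With no minimum level it was 37, 126 and 11, and with all 9 mice in 1 fit it was 107 in PRF 50 vs. ND. Leaving out 1 mouse gave 35 to 140, 15 to 242 and 4 to 71. The number with an unadjusted p under 0.05 and a fold above 2 was 134, 212 and 177. It was 216, 372 and 289 with a pseudocount of 0.1, and 68, 106 and 97 with a minimum of 10 FPKM, and leaving out 1 mouse gave 111 to 164, 168 to 253 and 131 to 239. Of the pathway lists, 2, 1 and 0 genes were called. In HFD vs. ND this was 0 with no minimum, 0 with 10 FPKM and 1 with quantile normalization, and in PRF 50 vs. HFD it was 0 with each of all 9 mice in 1 fit, no minimum and 10 FPKM. The called genes Spry4, Myc and Nrg4 were not tested with a minimum of 10 FPKM, so their calls could not be kept there. Leaving out 1 mouse gave 0 to 2 called list genes in each comparison. By Spearman rho 0 of the 5 genes most like Egfr stayed among the 5, and without 1 mouse 1 to 4 did.

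Differences of genes not called turned in sign as follows. Btc in PRF 50 vs. HFD was -0.0549 with quantile normalization, and leaving out 1 mouse gave -0.0832 to 0.069. Leaving out 1 mouse also gave -0.17 to 0.29 for Erbb3 and -0.18 to 0.0372 for Tgfa in HFD vs. ND, -0.19 to 0.0052 for Met in PRF 50 vs. HFD and -0.0317 to 0.34 for Egfr in PRF 50 vs. ND. The causes were not tested, beyond the number of genes tested or mice left in each alternative. Tgfa and Btc had no value with a minimum of 10 FPKM. Erbb2, Hbegf, Egf and Areg were below the minimum level, and their counting error is unknown.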
